A study of Mus musculus with 48 samples.

Results

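Brown adipocyte marker genes are genes whose transcripts are used to recognise brown fat cells. The 10 described here are Cidea, Elovl3, Cox7a1, Cox8b, Otop1, Kcnk3, Fabp3, Zic1, Lgr6 and Prdm16. They were taken by symbol, 1 row each, from a table of 47729 genes. They were followed over 12 groups of 4 libraries each, made of 3 fat depots, 2 genotypes and 2 diets.

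The series title names the question as whether lack of the amino acid cysteine sets off heat production in fat. Male mice without the Cth gene (Cth-/-) and male mice that carry it (Cth+/+) were given a cystine-free diet (CysF) or a control diet (CTRL) for 6 days. Cth encodes cystathionine gamma-lyase, which makes cysteine, and cystine is the dietary dimer of cysteine, so Cth-/- mice on the CysF diet lack both sources. Poly(A) RNA was sequenced from snap-frozen brown fat (BAT), subcutaneous fat (SFAT) and visceral fat (EFAT). Neither the age of the mice nor how the Cth allele was made is given in the sources used here. All 4 groups of a depot are whole tissue, so fewer cells of a type and less RNA per cell cannot be told apart in any result below.

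Brown adipocytes burn fatty acids and glucose in mitochondria whose inner membrane holds uncoupling protein UCP1, so that the energy is released as heat. Cold and noradrenaline acting on beta-adrenergic receptors switch this programme on, and scattered cells of the subcutaneous depot, called beige adipocytes, can take it up. The marker genes fall into 4 kinds by role. Prdm16 and Zic1 encode transcription regulators, and Prdm16 drives the brown fat gene programme while Zic1 marks the classical interscapular brown fat lineage. Cox7a1 and Cox8b encode subunits of cytochrome c oxidase, the last complex of the respiratory chain, in the isoforms of heart, skeletal muscle and brown fat. Cidea, a lipid droplet protein, Elovl3, which lengthens very long chain fatty acids, and Fabp3, the heart-type fatty acid carrier, belong to lipid handling. Kcnk3, a background potassium channel, Otop1, a proton channel, and Lgr6, a receptor for R-spondins, sit in membranes.

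RefSeq start sites on the GRCm38.p6 build were matched for 7 of the 10 markers, and Cidea, Elovl3 and Kcnk3 are named only. The 250 bases upstream of the start site are printed, on the gene's strand, for the 3 matched markers that rose in SFAT of Cth-/- mice on the CysF diet. Capitals mark a CCAAT box (CCAAT or its reverse complement ATTGG) or a GC box (GGGCGG or CCGCCC).
Cox7a1, chr7:30183921-30184170, plus strand: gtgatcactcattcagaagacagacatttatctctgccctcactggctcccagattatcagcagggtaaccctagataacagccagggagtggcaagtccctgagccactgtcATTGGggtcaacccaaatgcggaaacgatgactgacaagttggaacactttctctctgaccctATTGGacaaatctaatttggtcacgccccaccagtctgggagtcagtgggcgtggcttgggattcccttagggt
Cox8b, chr7:140900447-140900696, minus strand: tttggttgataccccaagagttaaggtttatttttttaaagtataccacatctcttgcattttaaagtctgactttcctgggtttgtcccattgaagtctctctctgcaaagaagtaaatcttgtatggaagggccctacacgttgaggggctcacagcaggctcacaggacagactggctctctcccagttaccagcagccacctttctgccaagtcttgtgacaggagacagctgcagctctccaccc
Lgr6, chr1:135105277-135105526, minus strand: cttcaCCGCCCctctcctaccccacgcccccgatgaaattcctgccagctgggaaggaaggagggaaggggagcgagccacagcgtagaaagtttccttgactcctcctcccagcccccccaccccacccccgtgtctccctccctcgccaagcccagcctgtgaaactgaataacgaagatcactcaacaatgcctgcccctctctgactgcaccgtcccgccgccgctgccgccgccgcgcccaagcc
The Cox7a1 stretch holds 2 CCAAT boxes, with first bases at positions -137 and -74 counted from the start site. The Lgr6 stretch holds 1 GC box, at -245, and the Cox8b stretch holds neither. A set of 8 motifs was searched on both strands in windows of 250 bases before to 50 bases after the start, over 32851 RefSeq promoters. The oestrogen-related receptor site TCAAGGTCA was in 0.423% of all promoters, the cyclic AMP response site TGACGTCA in 1.79%, the nuclear receptor repeat AGGTCANAGGTCA in 0.0396% and the early B cell factor site TCCCNNGGGA in 0.904%. The nuclear receptor half-site AGGTCA, which lies inside TCAAGGTCA and AGGTCANAGGTCA, was in 16.3%, and none of these 5 motifs was in any of the 7 marker promoters. The CCAAT box was in 3 of the 7 (Cox7a1, Zic1 and Prdm16) and in 37.4% of all promoters. The GC box was in 4 of the 7 (Lgr6, Otop1, Zic1 and Prdm16) and in 35.7% of all, and TATAAA was in 1, Cox8b, at 5 bases after the start, and in 13.6% of all. The window of Otop1 lies inside the gene as GENCODE annotates it.

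The libraries held 16.25 to 46.03 M expected counts each, which are reads assigned to genes by RSEM. Cth itself had 0 to 6 reads in the 24 Cth-/- libraries and 8 to 389 reads in the 24 Cth+/+ libraries. Levels are given as CPM, which are counts scaled to a common library size, on 1 scale for all 48 libraries, and levels are compared between genes only as CPM per kb of exon. Of the 48 libraries, 6 stand apart. In EFAT of Cth+/+ mice on CysF, replicate 11 held 137 CPM of Ucp1, against at most 2.84 CPM in the other 15 EFAT libraries. In SFAT of Cth-/- mice on CysF, replicate 20 had 31.28% of its counts from mitochondrially encoded genes, and replicate 18 was the lowest of its group for most of the markers. In BAT of Cth+/+ mice on CysF, replicate 8 had the highest sum of 18 skeletal muscle genes, 7644 CPM. In EFAT of Cth-/- mice on CysF, replicates 16 and 20 held 164.7 and 655.3 CPM of 5 epididymis genes. The libraries also fall into 2 sets by whether the transcript Gm43512 reached 0.1 CPM, a split that crosses the groups and of which the labels say nothing, and set B holds those that reached it. The labels do not say that the 4 libraries of a group are 4 animals, so the p-values reflect only how these libraries vary, and that variation may be technical.

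Fold changes are log2 values with their standard error, with a positive value where the first-named group is higher. A gene is called where the adjusted p (edgeR quasi-likelihood test, Benjamini-Hochberg over all genes tested) is under 0.05, and rose, fell and changed are used only of called genes. Fabp3 is the 1 marker whose expected count was not whole, in 32 of 48 libraries and by up to 0.45 of a read (counts more than 0.001 of a read from a whole number were taken as not whole). Its reads were shared in part with other loci, so its values are less certain than those of the other 9.

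All 10 markers had their highest levels in BAT, so the depot labelled as brown fat carried its defining transcripts. In Cth+/+ mice on CTRL, Cox8b (chromosome 7, 140898945 to 140900446, GRCm38) had the highest level per exon length in BAT, at 1534 CPM per kb. Cidea (chromosome 18, 67343604 to 67367785) followed at 1241 CPM per kb, Cox7a1 (chromosome 7, 30184144 to 30186078) at 472.8, Fabp3 (chromosome 4, 130308595 to 130315463) at 329.8 and Elovl3 (chromosome 19, 46131897 to 46135694) at 168 CPM per kb. The 3 membrane proteins and the 2 regulators were lower. Otop1 (chromosome 5, 38275972 to 38304217) had 89.5 CPM per kb, Kcnk3 (chromosome 5, 30588170 to 30625271) 67.22, Lgr6 (chromosome 1, 134983301 to 135105276) 11.28, Prdm16 (chromosome 4, 154316125 to 154636873) 3.916 and Zic1 (chromosome 9, 91358058 to 91365810) 1.39 CPM per kb. The lipid and respiratory chain markers thus lay far above the regulators in BAT on this per-length scale.

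BAT exceeded SFAT for all 10 markers in Cth+/+ mice on CTRL, where 53.0% of 18348 genes were called (4751 higher and 4970 lower in BAT). The log2 fold change was 7.93 for Fabp3, 7.36 for Elovl3, 7.06 for Lgr6, 5.93 for Cox7a1, 4.99 for Cidea, 4.06 for Cox8b, 3.57 for Otop1 and 1.80 for Kcnk3. Prdm16 showed the smallest, 1.23 ± 0.18, so it separated BAT from SFAT least. Zic1 had 530 reads in the BAT libraries and 10 reads in the SFAT libraries of that group, a ratio of 93.9 after scaling (95% counting interval 50.7 to 197, which covers counting error only). BAT also exceeded EFAT for all 10, with 60.0% of genes called (4937 higher and 6079 lower), and the log2 fold changes ran from 2.40 for Prdm16 and 2.72 for Kcnk3 to 9.94 for Cidea. SFAT exceeded EFAT for 4 of the 10, beside 15.2% of all genes (1038 higher and 1755 lower). These were Cidea (4.95 ± 0.70), Otop1 (4.97 ± 0.60), Cox8b (2.66 ± 0.43) and Prdm16 (1.17 ± 0.19). Elovl3 at 2.31 (edgeR adjusted p = 0.0815), Cox7a1 at 1.47 (adjusted p = 0.0595) and Kcnk3 at 0.92 (adjusted p = 0.089) were not called between these 2 depots.

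**Figure D1:**
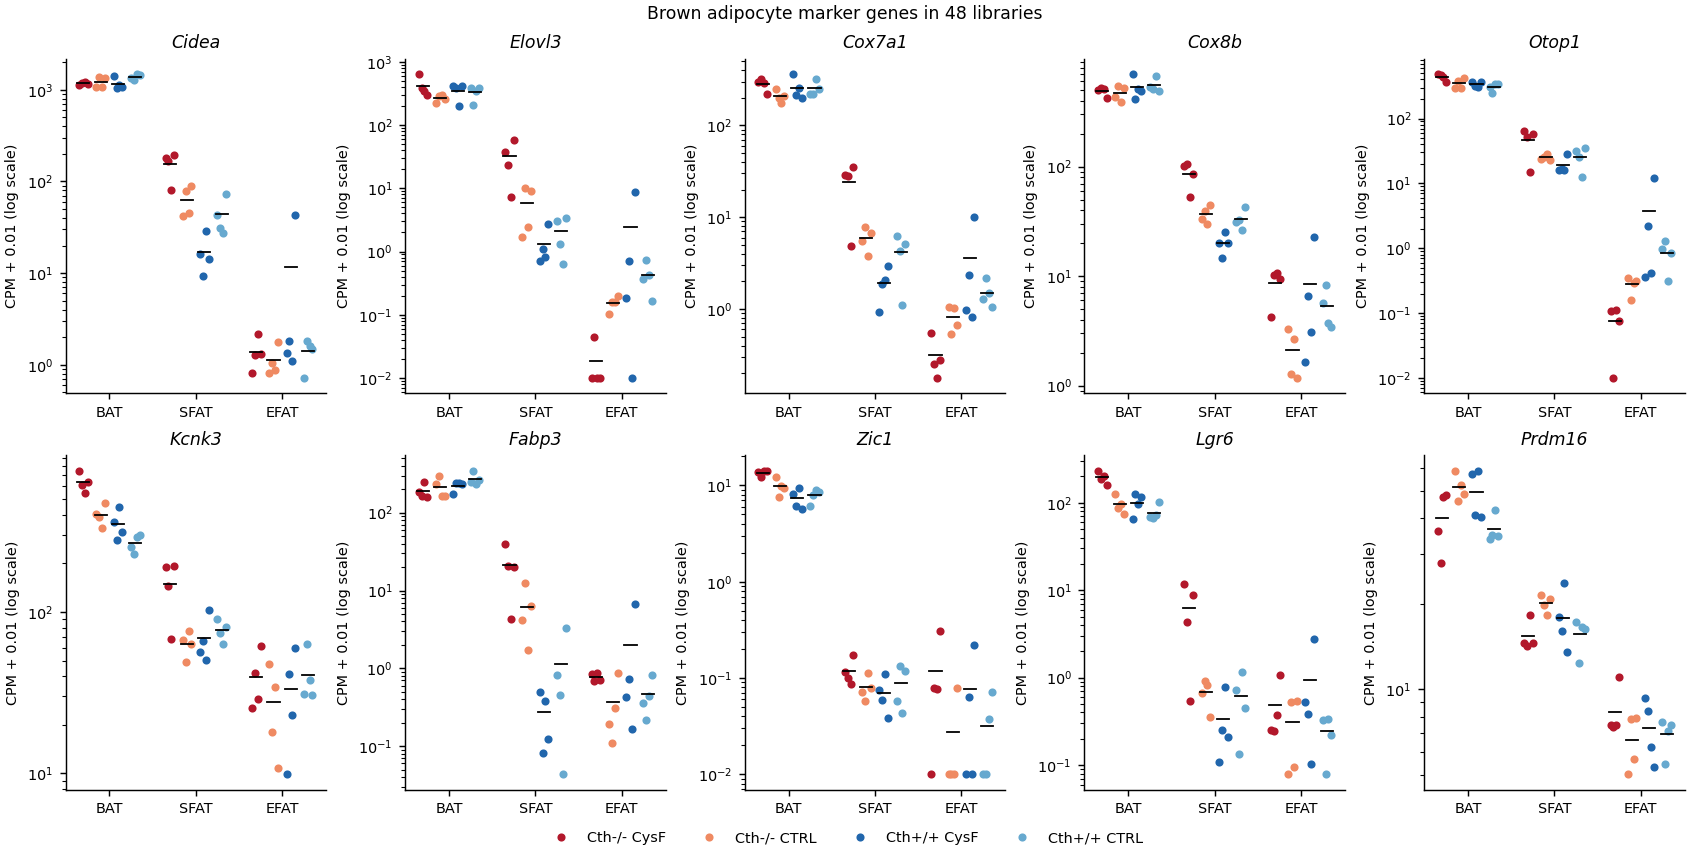
Level of each of the 10 markers in every library, in CPM plus 0.01 on a log axis, by depot, genotype and diet; dots are libraries (4 per group) and black bars are group means. All markers are highest in BAT, and in SFAT the Cth-/- CysF group lies above the other 3 groups for Cidea, Elovl3, Cox7a1, Cox8b and Fabp3 except where single libraries overlap.

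In SFAT of Cth-/- mice, 6 of the 9 markers that passed the low-count filter rose on the CysF diet and none fell. They were Cox7a1, Cox8b, Cidea, Elovl3, Kcnk3 and Lgr6, that is both respiratory chain markers, 2 of the 3 lipid markers and 2 of the 3 membrane markers. Of all 16555 genes tested, 25.4% were called (1957 higher and 2251 lower). The median log2 fold change was 1.31 over the 9 markers and 0.03 over all genes. Zic1 did not pass the filter, with 12 reads over the 4 libraries in either group.

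Among the respiratory chain markers, Cox8b had 100.7, 104.9, 52.99 and 85.08 CPM in the Cth-/- CysF libraries (replicates 16, 17, 18 and 20), against 33.18, 39.4, 29.69 and 44.6 CPM in the Cth-/- CTRL libraries (replicates 12 to 15). No library of one group overlapped the other. The log2 fold change was 1.24 ± 0.21 (edgeR adjusted p = 0.00087). Cox7a1 had 28.63, 27.89, 4.893 and 34.87 CPM in Cth-/- CysF, against 5.5, 7.735, 3.784 and 6.8 CPM in Cth-/- CTRL. All CysF libraries but 1 lay well above every CTRL library, and replicate 18 lay within the CTRL range. Its log2 fold change was 2.03 ± 0.52 (edgeR adjusted p = 0.0107).

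Among the lipid markers, Cidea had 178.1, 168.1, 80.77 and 195.7 CPM in Cth-/- CysF, against 41.83, 77.84, 45.01 and 89.18 CPM in Cth-/- CTRL. Replicate 18 overlapped the CTRL range and the other 3 CysF libraries did not. The log2 fold change was 1.31 ± 0.38 (edgeR adjusted p = 0.0212). The call ended without CysF replicate 16 (1.24, adjusted p = 0.0503) or 20 (1.17, 0.0556), and without CTRL replicate 12 (1.15, 0.0654) or 14 (1.16, 0.0605). Elovl3 had 37.79, 23.26, 7.352 and 58.95 CPM in Cth-/- CysF, against 1.717, 9.983, 2.438 and 9.197 CPM in Cth-/- CTRL. Again only replicate 18 overlapped, and the spread within the CysF group was wide. The log2 fold change was 2.47 ± 0.68 (edgeR adjusted p = 0.0149), and 1.97 (adjusted p = 0.051) without CysF replicate 20. Fabp3 had 39.37, 20.89, 4.335 and 19.97 CPM in Cth-/- CysF, against 4.212, 12.64, 1.702 and 6.316 CPM in Cth-/- CTRL, and its log2 fold change of 1.78 ± 0.76 was not called (adjusted p = 0.0991).

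Of the membrane proteins, Kcnk3 had 188.9, 144.5, 67.61 and 192.2 CPM in Cth-/- CysF, against 66.63, 48.8, 76.12 and 63.34 CPM in Cth-/- CTRL. Its log2 fold change was 1.23 ± 0.28 (edgeR adjusted p = 0.00555). Lgr6 had 11.65, 4.293, 0.5324 and 8.799 CPM in Cth-/- CysF, against 0.6543, 0.8944, 0.8128 and 0.3457 CPM in Cth-/- CTRL. Lgr6 thus showed the largest fold change of the markers in this comparison, from a low level, and replicate 18 showed none of it. Its log2 fold change was 3.23 ± 0.77 (edgeR adjusted p = 0.00678). Otop1 had 64.88, 51.76, 14.78 and 57.22 CPM in Cth-/- CysF, against 24.11, 25.74, 28.6 and 22.98 CPM in Cth-/- CTRL, and was not called (0.91 ± 0.37, adjusted p = 0.0823). Without replicate 18 it was called, at 1.204 (adjusted p = 0.0057), as was Fabp3 at 2.12 (adjusted p = 0.0488).

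The regulator Prdm16 ran against the rest. It had 14.53, 14.16, 18.25 and 14.52 CPM in Cth-/- CysF, against 21.49, 19.8, 18.31 and 20.84 CPM in Cth-/- CTRL. The 2 groups did not overlap, yet the log2 fold change of -0.38 ± 0.15 was not called (edgeR adjusted p = 0.082), and it was at -0.47 (adjusted p = 0.0468) without replicate 18. Zic1, the other regulator, stayed at 1 to 5 reads in every SFAT library.

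The library sets were unevenly placed in this comparison. Within set A, 3 CysF and 2 CTRL libraries of Cth-/- mice, Cox8b (1.04, edgeR adjusted p = 0.0256) and Kcnk3 (1.26, 0.0446) were called, while Cidea (0.77, 0.117), Elovl3 (1.25, 0.17), Cox7a1 (1.495, 0.112) and Lgr6 (3.14, 0.0742) were not. Within set B, 1 CysF and 2 CTRL libraries, all 6 were higher on CysF, from 1.44 for Kcnk3 to 4.85 for Elovl3. The lone CysF library was replicate 20, with 31.28% of its counts from mitochondrially encoded genes. It was also the highest of its group for Cidea, Elovl3, Cox7a1 and Kcnk3. A group of 1 library has no spread of its own, so only the values are given. Skeletal muscle also expresses Cox7a1, Cox8b and Fabp3, and its 18 listed genes summed to 25.4 to 1583 CPM in Cth-/- CysF and 14.7 to 585 CPM in Cth-/- CTRL, with none called. With a muscle score in the fit the 6 markers stayed called, from 1.11 for Kcnk3 to 2.99 for Lgr6. Macrophage genes summed to 566 to 967 CPM in Cth-/- CysF and 953 to 2926 CPM in Cth-/- CTRL, with 8 of 11 lower and none higher. Fibroblast and progenitor genes summed to 1109 to 1452 CPM in Cth-/- CysF and 1833 to 3463 CPM in Cth-/- CTRL, with 8 of 9 lower and none higher. B cell genes summed to 34.7 to 87.4 CPM in Cth-/- CysF and 130.5 to 547.4 CPM in Cth-/- CTRL, with all 9 lower. General adipocyte genes summed to 25480 to 30110 CPM in Cth-/- CysF and 18220 to 23060 CPM in Cth-/- CTRL, with 3 of 11 higher and none lower. The part of these cell types in the markers' result was not tested.

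**Figure D2:**
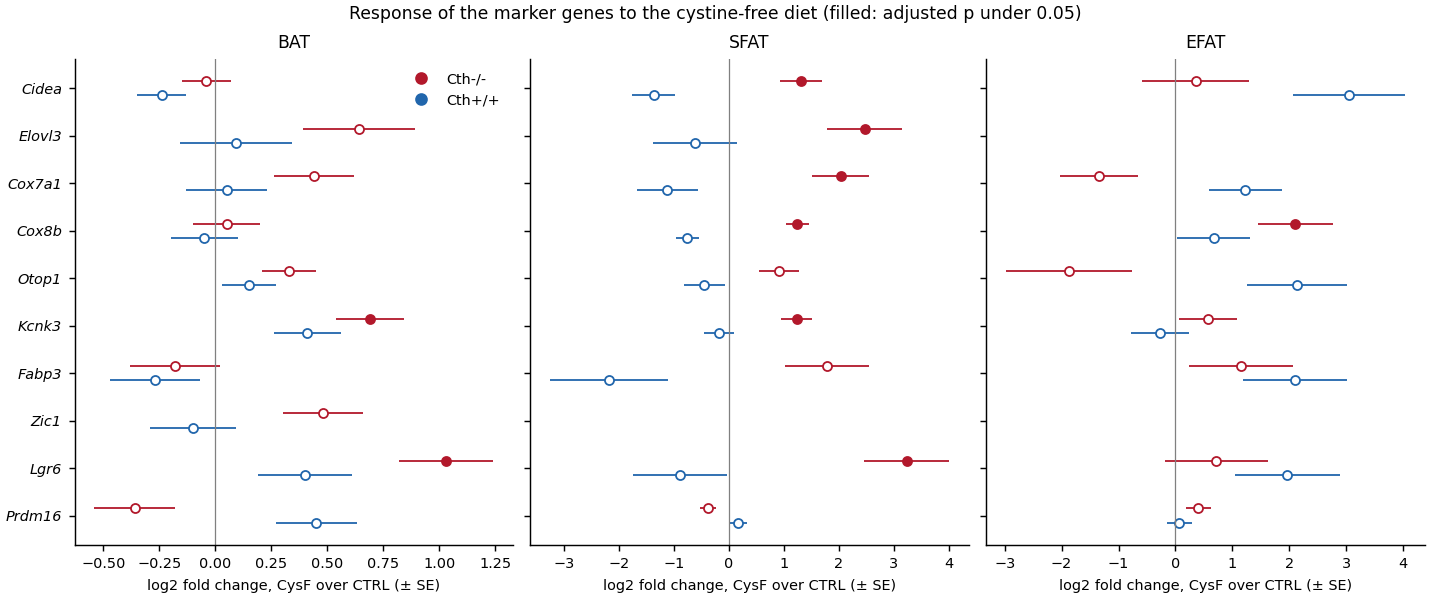
Log2 fold change of CysF over CTRL with its standard error for each marker in BAT, SFAT and EFAT (panels have different ranges), in Cth-/- mice (red) and Cth+/+ mice (blue); filled points have an adjusted p under 0.05. In SFAT 6 markers rose in Cth-/- mice and none was called in Cth+/+ mice; Elovl3 is left out of the EFAT panel because of its low reads, and Zic1 was not tested in SFAT and EFAT.

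In Cth+/+ mice the same diet moved no marker past the threshold in SFAT by edgeR, with 0 of 9 called. DESeq2 called 2, Cidea and Cox8b, both lower on CysF, and 2 markers had an unadjusted edgeR p under 0.05. Of all genes, edgeR called 0.0664% (9 higher and 2 lower) and DESeq2 called 429 of the 14291 with an adjusted p. An unadjusted edgeR p under 0.05 was found for 2310 of 16555 genes. Cidea had 16.02, 9.37, 28.94 and 14.15 CPM in Cth+/+ CysF (replicates 7, 8, 10 and 11), against 43.57, 30.97, 27.11 and 72.73 CPM in Cth+/+ CTRL (replicates 1 to 4), a log2 fold change of -1.37 ± 0.39 (edgeR adjusted p = 0.16). Cox8b had 19.87, 14.52, 25.17 and 20.04 CPM in Cth+/+ CysF, against 30.93, 32.27, 26.64 and 43.03 CPM in Cth+/+ CTRL, which did not overlap (-0.76 ± 0.21, adjusted p = 0.156). The median over the 9 markers was -0.76. In these mice most markers thus lay lower on the diet on which they lay higher in Cth-/- mice.

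The test of that difference, the diet change in Cth-/- minus the diet change in Cth+/+, called 7 of 9 markers, all positive, beside 21.7% of all genes (1554 positive and 2046 negative). Lgr6 differed by 4.12 ± 1.14 on the log2 scale (edgeR adjusted p = 0.0183) and Fabp3 by 3.96 ± 1.31 (adjusted p = 0.0416). Cox7a1 differed by 3.14 ± 0.76 (adjusted p = 0.00924), Elovl3 by 3.08 ± 1.01 (0.0395) and Cidea by 2.68 ± 0.55 (0.0036). Cox8b differed by 2.00 ± 0.30 (edgeR adjusted p = 0.000544) and Kcnk3 by 1.41 ± 0.40 (0.0205). Otop1 at 1.36 ± 0.52 (adjusted p = 0.0729) and Prdm16 at -0.55 ± 0.21 (adjusted p = 0.0821) were not called. Cox8b and Cidea kept their calls within set A, where 2 of the 7 were called, and with the muscle score in the fit, where 4 were; Elovl3, Kcnk3 and Fabp3 lost theirs with the score (edgeR adjusted p = 0.14, 0.0574 and 0.0918). The Elovl3 call ended on leaving out Cth-/- CysF replicate 16 or 20, Cth-/- CTRL 12 or 14, Cth+/+ CysF 7, 8 or 10, or Cth+/+ CTRL 1 or 4 (2.58 to 2.99, adjusted p = 0.0633 to 0.0946). The Fabp3 call ended on leaving out Cth-/- CysF 16, 17 or 20, Cth-/- CTRL 12, 14 or 15, any Cth+/+ CysF library, or Cth+/+ CTRL 1 or 4 (adjusted p = 0.0519 to 0.209), and the Lgr6 call without Cth+/+ CTRL 3 (3.55, 0.0507). Otop1 was called without Cth-/- CysF 18, Cth+/+ CysF 11 or Cth+/+ CTRL 3 (1.58 to 1.66), and Prdm16 without Cth-/- CysF 18 or Cth+/+ CysF 11 (-0.64 and -0.66).

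On the CysF diet, SFAT of Cth-/- mice exceeded SFAT of Cth+/+ mice for 8 of 9 markers, and Prdm16 alone was not called (-0.19 ± 0.15, edgeR adjusted p = 0.345). Of all genes 37.5% were called (2997 higher and 3216 lower). This comparison shares the Cth-/- CysF libraries with the diet comparison in Cth-/- mice. Fabp3 had 39.37, 20.89, 4.335 and 19.97 CPM in Cth-/- CysF, against 0.4903, 0.07282, 0.3697 and 0.1137 CPM in Cth+/+ CysF, with a log2 fold change of 6.41 ± 1.03 (edgeR adjusted p = 0.000214). Elovl3 had 31.84 ± 21.94 CPM in Cth-/- CysF and 1.328 ± 0.9488 CPM in Cth+/+ CysF (SD, n = 4 each; 4.58 ± 0.77, edgeR adjusted p = 0.000302). These were the 2 widest gaps between the genotypes, but Lgr6 lay within the standard error of Elovl3, and Fabp3 had only 33 reads in Cth+/+ CysF. Both are lipid markers, while Cidea, the other lipid marker, lay below Lgr6 and Cox7a1. Lgr6 differed by 4.29 ± 0.84 (edgeR adjusted p = 0.00101), Cox7a1 by 3.64 ± 0.57 (0.000184), Cidea by 3.21 ± 0.41 (3.74e-05), Cox8b by 2.13 ± 0.22 (5.63e-06), Otop1 by 1.32 ± 0.37 (0.0113) and Kcnk3 by 1.12 ± 0.28 (0.00586). Cidea, Elovl3, Cox7a1, Cox8b and Fabp3 did not overlap between the groups, but the share of all genes without overlap is not given here. Of the 18 skeletal muscle genes 2 were called, both higher in Cth-/-, and with the muscle score in the fit 7 markers were called, without Otop1 (1.08, adjusted p = 0.0517). Within set A Otop1 (0.99, adjusted p = 0.177) and Kcnk3 (0.68, 0.205) were not called. Macrophage genes summed to 566 to 967 CPM in Cth-/- CysF and 946.6 to 2928 CPM in Cth+/+ CysF, with 11 of 11 lower. Fibroblast and progenitor genes summed to 1109 to 1452 CPM in Cth-/- CysF and 1702 to 4122 CPM in Cth+/+ CysF, with 8 of 9 lower and none higher. General adipocyte genes summed to 25480 to 30110 CPM in Cth-/- CysF and 17310 to 22180 CPM in Cth+/+ CysF, with 6 of 11 higher and none lower. Their part in the marker values was not tested. On the CTRL diet no marker differed between genotypes in SFAT by edgeR or DESeq2, and edgeR called 0.103% of all genes (7 higher and 10 lower). The unadjusted edgeR p was under 0.05 for 2 markers, beside 1825 of 16555 genes.

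Set against BAT of the same genotype and diet, the SFAT mean of Cidea was 13.3% of the BAT mean in Cth-/- CysF, 5.24% in Cth-/- CTRL, 1.47% in Cth+/+ CysF and 3.15% in Cth+/+ CTRL. Cox8b was at 17.6% in Cth-/- CysF, 7.76% in Cth-/- CTRL, 3.75% in Cth+/+ CysF and 6.01% in Cth+/+ CTRL. Fabp3 was at 11.2% in Cth-/- CysF, 2.89% in Cth-/- CTRL, 0.118% in Cth+/+ CysF and 0.421% in Cth+/+ CTRL. Kcnk3 was at 23.2% in Cth-/- CysF, 16.0% in Cth-/- CTRL, 19.7% in Cth+/+ CysF and 28.8% in Cth+/+ CTRL, so its highest share was in Cth+/+ CTRL. Otop1 was at 10.8% in Cth-/- CysF, 7.26% in Cth-/- CTRL, 5.67% in Cth+/+ CysF and 8.42% in Cth+/+ CTRL. Elovl3, Cox7a1, Lgr6 and Ucp1, like Cidea, Cox8b, Fabp3 and Otop1, had their highest share in Cth-/- CysF and their lowest in Cth+/+ CysF. Prdm16, between 36.1% and 42.7% in the 4 groups, and Zic1, between 0.715% and 0.994%, had the narrowest spans of the markers, taken as the ratio of highest to lowest. Zic1 had only 8 to 12 reads per SFAT group, so a steady level cannot be told from a changed one. For genotype on CysF in SFAT, its 95% counting interval ran from 0.646 to 4.85. In Cth-/- mice on CysF, BAT still exceeded SFAT for all 10 markers (53.0% of all genes called, 4419 higher and 5310 lower). The log2 fold changes ran from 1.37 for Prdm16 to 6.99 for Zic1, and their median was 3.195, against 5.46 in Cth+/+ CTRL. BAT exceeded EFAT for all 10 as well (70.1% of all genes called, 5325 higher and 7531 lower).

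**Figure D3:**
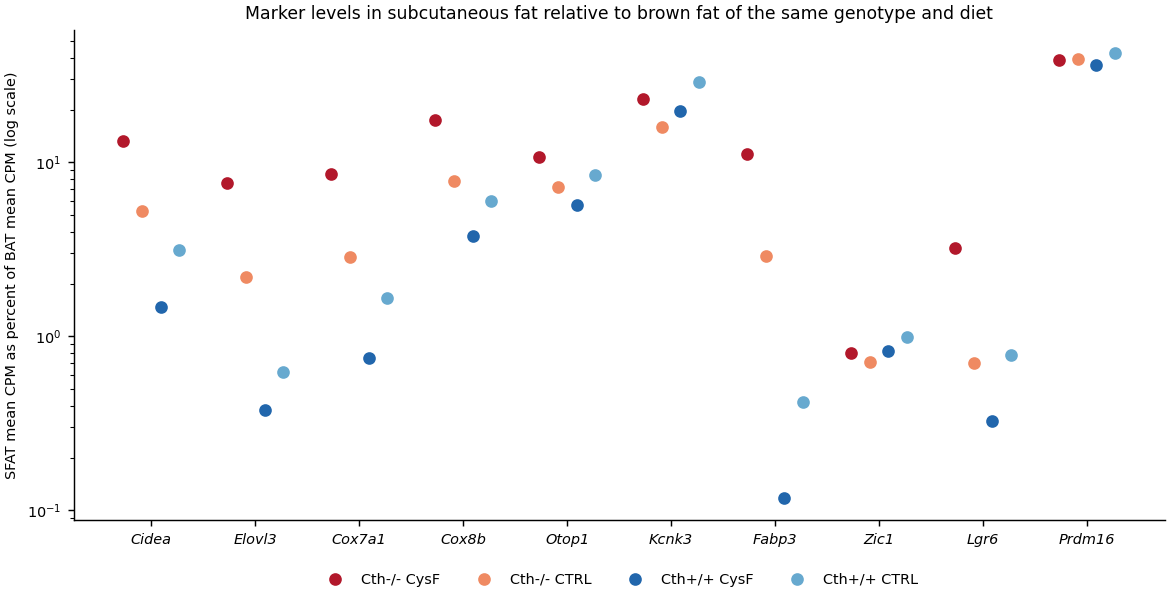
Mean SFAT level of each marker as a percentage of the mean BAT level of the same genotype and diet, on a log axis. Each point is a ratio of means of 4 libraries. Cidea reaches 13.3% and Cox8b 17.6% in Cth-/- CysF, while Prdm16 lies between 36.1% and 42.7% in all 4 groups. The points of Zic1 rest on 8 to 12 SFAT reads per group, too few to show whether its percentage is steady.

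In BAT of Cth-/- mice the CysF diet raised 2 of the 10 markers, the membrane proteins Kcnk3 and Lgr6, and lowered none. Of all 14528 genes, 18.0% were called (1135 higher and 1482 lower), so the count of 2 of 10 lies near the share of all genes. Kcnk3 had 750, 615.1, 546.4 and 642.4 CPM in Cth-/- CysF, against 402, 385.7, 331.9 and 471.6 CPM in Cth-/- CTRL, which did not overlap (0.69 ± 0.15, edgeR adjusted p = 0.00708). Lgr6 had 232.9, 188.5, 201.1 and 161.1 CPM in Cth-/- CysF, against 125.7, 87.22, 96.98 and 74.55 CPM in Cth-/- CTRL, again with no overlap (1.03 ± 0.21, edgeR adjusted p = 0.00381). The other 8 were between -0.36 for Prdm16 and 0.64 for Elovl3. Cidea averaged 1174 CPM in Cth-/- CysF and 1210 CPM in Cth-/- CTRL (-0.04 ± 0.11, edgeR adjusted p = 0.852). Cox8b averaged 489.5 CPM in Cth-/- CysF and 473.3 CPM in Cth-/- CTRL (0.05 ± 0.15, edgeR adjusted p = 0.83). Elovl3 (0.64 ± 0.25, adjusted p = 0.0897), Cox7a1 (0.44 ± 0.18, 0.0976), Zic1 (0.48 ± 0.18, 0.086) and Otop1 (0.33 ± 0.12, 0.0663) had an unadjusted p under 0.05 with Kcnk3 and Lgr6, which makes 6 of 10. Of all genes, 4650 of 14528 had an unadjusted edgeR p under 0.05. DESeq2 called 5, Elovl3, Otop1, Kcnk3, Zic1 and Lgr6, beside 3148 of 14522 genes. Within library set A (3 CysF and 2 CTRL libraries) Kcnk3 (0.61, adjusted p = 0.0395), Lgr6 (1.40, 0.0124) and Zic1 (0.68, 0.025) were called, and within set B (1 and 2) none was (Kcnk3 0.84, adjusted p = 0.141, and Lgr6 0.57, 0.179). Otop1 was called without CysF replicate 20 (0.39, adjusted p = 0.0491) or CTRL 15 (0.41, 0.0335), and Zic1 without CTRL 12 (0.62, 0.0428). Skeletal muscle genes, of which 11 of 18 fell and none rose, summed to 15.5 to 299 CPM in Cth-/- CysF and 193.8 to 1833 CPM in Cth-/- CTRL. With the muscle score in the fit Kcnk3 was at 0.67 (adjusted p = 0.0926) and Lgr6 at 1.28 (0.0165). Macrophage genes summed to 78.2 to 101.1 CPM in Cth-/- CysF and 123.8 to 190.8 CPM in Cth-/- CTRL, with 9 of 11 lower and none higher. Fibroblast and progenitor genes summed to 241.2 to 281.8 CPM in Cth-/- CysF and 364 to 406.6 CPM in Cth-/- CTRL, with 7 of 9 lower and none higher. General adipocyte genes summed to 21680 to 24750 CPM in Cth-/- CysF and 16910 to 18920 CPM in Cth-/- CTRL, with 3 of 11 higher and 1 lower. The part of macrophages, fibroblasts and adipocytes in the marker values was not tested.

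On the CysF diet, BAT of Cth-/- mice exceeded BAT of Cth+/+ mice for 4 of 10 markers and was lower for none, beside 31.6% of all genes (2100 higher and 2489 lower). Kcnk3 had 638.5 ± 84.61 CPM in Cth-/- CysF and 348.8 ± 72.85 CPM in Cth+/+ CysF (SD, n = 4 each; 0.88 ± 0.15, edgeR adjusted p = 0.000573). Lgr6 differed by 0.98 ± 0.21 (edgeR adjusted p = 0.00224) and Otop1 by 0.39 ± 0.12 (0.0203). Zic1, the lineage marker, had 13.7, 12.27, 14.14 and 14.24 CPM in Cth-/- CysF, against 8.174, 6.086, 9.476 and 5.703 CPM in Cth+/+ CysF (0.91 ± 0.19, edgeR adjusted p = 0.00189). None of the 4 overlapped between the groups, but the share of all genes without overlap is not given here. No lipid or respiratory chain marker was called in this comparison, and the count of 4 of 10 lies near the share of all genes. All 18 muscle genes were lower in Cth-/- CysF (15.5 to 299 CPM summed, against 376 to 7644 in Cth+/+ CysF), and with the muscle score in the fit Kcnk3 (0.86, adjusted p = 0.0463) and Lgr6 (1.35, 0.0216) were called while Otop1 (0.36, 0.288) and Zic1 (0.72, 0.147) were not. Within set B none of the 4 was called, and the Otop1 call also ended without Cth-/- CysF replicate 16 or 17 or Cth+/+ CysF replicate 8 (adjusted p = 0.0532 to 0.0578). Macrophage genes summed to 78.2 to 101.1 CPM in Cth-/- CysF and 166.9 to 346.9 CPM in Cth+/+ CysF, with 10 of 11 lower and none higher. Fibroblast and progenitor genes summed to 241.2 to 281.8 CPM in Cth-/- CysF and 387.1 to 582.8 CPM in Cth+/+ CysF, with 7 of 9 lower and none higher. General adipocyte genes summed to 21680 to 24750 CPM in Cth-/- CysF and 15440 to 18290 CPM in Cth+/+ CysF, with 5 of 11 higher, and endothelial genes to 891.8 to 964.3 CPM in Cth-/- CysF and 620.2 to 779.7 CPM in Cth+/+ CysF, with 4 of 9 higher. Their part in the marker values was not tested.

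On the CTRL diet 0 of 10 markers were called between genotypes in BAT by edgeR, beside 2.10% of all genes (188 higher and 117 lower). DESeq2 called 1, Kcnk3, beside 792 of 14522 genes. For 2 markers the unadjusted edgeR p was under 0.05, beside 2660 of 14528 genes. Kcnk3 had 402, 385.7, 331.9 and 471.6 CPM in Cth-/- CTRL, against 253.7, 227.6, 289.4 and 298.3 CPM in Cth+/+ CTRL, with no overlap (0.60 ± 0.15, edgeR adjusted p = 0.0545). It was called without Cth-/- CTRL replicate 14 (0.67, edgeR adjusted p = 0.0435). Prdm16, not called with all libraries, also did not overlap, at 45.93 to 58.72 CPM in Cth-/- CTRL and 33.66 to 42.8 CPM in Cth+/+ CTRL. The interaction called 0 of 10 markers by edgeR, beside 6.42% of all genes (305 positive and 627 negative). DESeq2 called 1, Prdm16, beside 1484 of 14522 genes. An unadjusted edgeR p under 0.05 was found for 3 markers, beside 3226 of 14528 genes. Prdm16 had 39.88 ± 9.758 CPM in Cth-/- CysF, 51.32 ± 5.561 in Cth-/- CTRL, 49.26 ± 10.03 in Cth+/+ CysF and 36.5 ± 4.232 in Cth+/+ CTRL (SD, n = 4 each), an interaction of -0.81 ± 0.26 (edgeR adjusted p = 0.0718), called at -0.93 (0.0471) without Cth-/- CysF replicate 20. In Cth+/+ mice the diet called no marker in BAT by edgeR or DESeq2, and edgeR called 0.0826% of all genes (8 higher and 4 lower). The unadjusted edgeR p was under 0.05 for 3 markers, beside 1424 of 14528 genes.

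In EFAT each marker lay below its own BAT level. The group mean was at most 1.77% of the BAT mean of the same genotype and diet for 8 markers, between 6.18% and 15.2% for Kcnk3 and between 12.9% and 20.9% for Prdm16. The 10 markers summed to 24.2 to 85.8 CPM in 15 of the 16 EFAT libraries and to 171.2 CPM in Cth+/+ CysF replicate 11, against 2878 to 4262 CPM in BAT. That replicate held Cidea at 3.68%, Elovl3 at 2.54%, Cox7a1 at 3.91%, Cox8b at 4.27%, Otop1 at 3.53%, Fabp3 at 3.00%, Zic1 at 2.88%, Lgr6 at 2.74% and Ucp1 at 3.43% of the BAT mean of its own genotype and diet. These 9 percentages lie close together, while Kcnk3 at 17.2% and Prdm16 at 10.8% lay within the range of the other EFAT libraries, as did Zic1. Its skeletal muscle genes summed to 89 CPM, against 16.4 to 40.1 CPM in the other 3 libraries of its group. Where the EFAT comparisons below give a marker's fold change that uses its group, the value without it is given too. The EFAT group means, the correlations between markers and the likeness values include it.

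**Figure D4:**
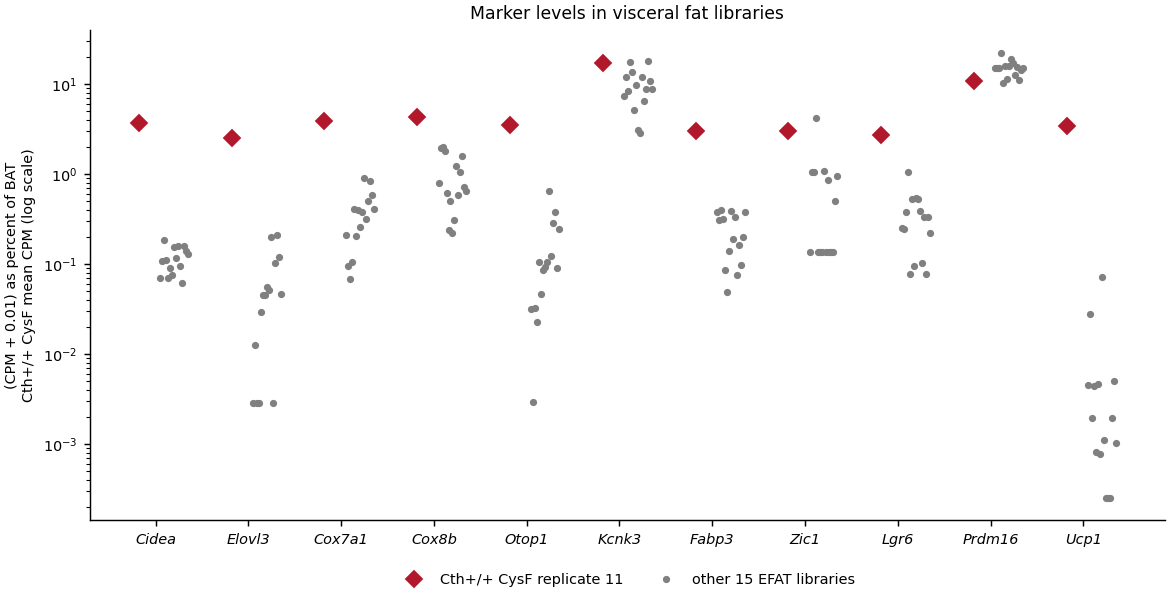
Level (CPM plus 0.01) of each marker and Ucp1 in the 16 EFAT libraries as a percentage of the BAT mean in Cth+/+ CysF, on a log axis; the diamond is Cth+/+ CysF replicate 11 and grey points are the other 15 libraries. Replicate 11 lies near 3% for most markers, above the other libraries for all but Zic1, Kcnk3 and Prdm16.

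In EFAT of Cth-/- mice 1 of 9 markers rose on CysF, Cox8b, and none fell, beside 28.8% of 17248 genes (2507 higher and 2469 lower). Cox8b had 4.233, 10.26, 10.7 and 9.453 CPM in Cth-/- CysF, against 3.296, 1.263, 2.681 and 1.164 CPM in Cth-/- CTRL, with no overlap (2.11 ± 0.66, edgeR adjusted p = 0.0282). The call ended without CysF replicate 17, 18 or 20 or CTRL replicate 13, 14 or 15 (1.90 to 2.23, adjusted p = 0.0557 to 0.0706), and in a fit that takes the library set into account (1.84, 0.142). Cox7a1, the other respiratory chain marker, had 0.5382, 0.2387, 0.1673 and 0.2653 CPM in Cth-/- CysF, against 1.053, 0.5199, 1.021 and 0.6516 CPM in Cth-/- CTRL (-1.34 ± 0.69, edgeR adjusted p = 0.156). The 2 subunits thus lay on opposite sides of 0 here. Elovl3 had 1 read in the 4 Cth-/- CysF libraries and 25 reads in the 4 Cth-/- CTRL libraries, a scaled ratio of 0.0535 (95% counting interval 0.0013 to 0.327). Otop1 had 9 reads in Cth-/- CysF and 47 reads in Cth-/- CTRL, a ratio of 0.256 (0.110 to 0.528). Neither was called. Zic1, which was not tested in EFAT, had 13 reads in Cth-/- CysF, 9 of them in replicate 20, and 3 reads in Cth-/- CTRL. Its ratio was 5.79 (95% counting interval 1.59 to 31.7). In Cth-/- CysF, replicates 16 and 20 held 164.7 and 655.3 CPM of epididymis genes, against at most 3.94 CPM in the other 14 EFAT libraries. Replicate 20 also had the highest Kcnk3, Lgr6 and Prdm16 of its group, at 61.59, 1.06 and 11.04 CPM. The Cox8b value was 2.25 (edgeR adjusted p = 0.0242) without replicate 16 and 2.07 (0.0592) without replicate 20. The part of that tissue in the other marker values was not tested.

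On CysF, EFAT of Cth-/- mice was lower than EFAT of Cth+/+ mice for 4 of 9 markers and higher for none, beside 39.7% of all genes (3459 higher and 3382 lower). The share of markers called thus lies near that of all genes. Otop1 had 4, 0, 3 and 2 reads in Cth-/- CysF, against 10, 81, 13 and 449 reads in Cth+/+ CysF, the last being replicate 11 (ratio of reads 0.017, 95% counting interval 0.00773 to 0.0325; -5.64 ± 1.12, edgeR adjusted p = 0.00161). Without replicate 11 the log2 fold change was -3.75 ± 0.78 (edgeR adjusted p = 0.0036). Cox7a1 was at -3.46 ± 0.71 (edgeR adjusted p = 0.00206) and at -2.10 ± 0.45 (0.00434) without it, with no overlap between the groups. Elovl3 had 1 read in Cth-/- CysF and 366 in Cth+/+ CysF (-7.70 ± 1.74, edgeR adjusted p = 0.00349), and 31 reads in Cth+/+ CysF without replicate 11 (-4.70 ± 1.25, 0.0125). It had at most 8 reads in any Cth-/- EFAT library, so it passed the low-count filter through Cth+/+ libraries only. Its call thus adds no support beyond the reads given. Otop1, Cox7a1 and Elovl3 kept their calls without replicate 11, at smaller values. Cidea did not: it was at -3.02 ± 0.98 (edgeR adjusted p = 0.0245) with replicate 11 and at -0.00055 (adjusted p = 0.999) without it. The Cidea call also ended without Cth-/- CysF replicate 17 (edgeR adjusted p = 0.059) or 20 (0.0606). White adipocyte genes summed to 531.2 to 1163 CPM in Cth-/- CysF and 1736 to 3228 CPM in Cth+/+ CysF. In the same order, macrophage genes summed to 450.2 to 631.2 and 725 to 1038 CPM, and B cell genes to 32.88 to 40.03 and 375.6 to 592.5 CPM. Fibroblast and progenitor genes went the other way, at 1689 to 1933 and 1107 to 1626 CPM. Their part in the marker values was not tested. Within library set A, with 1 Cth-/- CysF library, no marker was called, and set B held no Cth+/+ CysF library.

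In Cth+/+ mice the diet called none of the 9 markers in EFAT by edgeR or DESeq2, 4 had an unadjusted p under 0.05, and 0% of all genes were called by edgeR (678 with an unadjusted p under 0.05; DESeq2 called 21). Cidea was at 3.05, Elovl3 at 2.56 and Otop1 at 2.13, and without replicate 11 Cidea was at 0.03, Elovl3 at -0.45 and Otop1 at 0.24. On CTRL no marker differed between genotypes in EFAT by edgeR or DESeq2, and edgeR called 0.0464% of all genes (3 higher and 5 lower). No marker had an unadjusted edgeR p under 0.05, beside 1070 of 17248 genes. The EFAT interaction called 0 of 9 by edgeR, beside 10.4% of all genes (870 positive and 922 negative). DESeq2 called 3, beside 2917 of 15901 genes. An unadjusted edgeR p under 0.05 was found for 3 markers, beside 5158 of 17248 genes. Cox8b was at 1.44 (edgeR adjusted p = 0.302) there with all libraries, and was called at 2.58 ± 0.70 (0.0452) without replicate 11. Cox7a1 was called there without Cth-/- CysF 16 or Cth+/+ CysF 10, Otop1 without Cth+/+ CysF 7 or 10, and Elovl3 without Cth+/+ CysF 10.

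The diet responses of Cth-/- mice were then compared between depots. SFAT minus BAT called 0 of 10 markers by edgeR and by DESeq2, beside 2.16% of all genes by edgeR (246 positive and 151 negative). An unadjusted edgeR p under 0.05 was found for 5 markers, beside 2657 of 18348 genes. Lgr6 was at 2.16 ± 0.77 (edgeR adjusted p = 0.143), Fabp3 at 1.95 ± 0.83 (0.251), Elovl3 at 1.80 ± 0.87 (0.334), Cox7a1 at 1.56 ± 0.65 (0.23), Cidea at 1.34 ± 0.80 (0.466) and Cox8b at 1.18 ± 0.56 (0.315). The larger fold changes of SFAT were thus not separated from those of BAT by this test, which shares 1 spread over all 3 depots. Without SFAT Cth-/- CysF replicate 18, Lgr6 was called at 2.57 (edgeR adjusted p = 0.0323). EFAT minus BAT called 1 of 10, Cox8b (1.98 ± 0.59, edgeR adjusted p = 0.0186), beside 16.2% of all genes (1337 positive and 1639 negative). Prdm16 was also called there without BAT Cth-/- CysF replicate 18 or 20, EFAT Cth-/- CysF 16 or EFAT Cth-/- CTRL 13 or 15 (0.75 to 0.80), and Zic1 without EFAT Cth-/- CTRL 15. SFAT minus EFAT called 1 of 10, Cox7a1 (3.36 ± 0.87, edgeR adjusted p = 0.0223), beside 4.38% of all genes (614 positive and 190 negative), and this call ended without EFAT Cth-/- CysF replicate 18 or 20 or Cth-/- CTRL replicate 12 or 14 (adjusted p = 0.0501 to 0.072), while Prdm16 was called without EFAT Cth-/- CTRL 15 (-0.82, 0.0485).

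Other genes of heat production were described from lists fixed beside the markers. Of 18 thermogenic genes outside the markers, 16 rose and 1 fell in SFAT of Cth-/- mice on CysF, beside 25.4% of all genes called, with a median log2 fold change of 1.42 against 0.03 over all genes. Dio2, which activates thyroid hormone, rose by 4.03 ± 0.68 (edgeR adjusted p = 0.00072) and Slc27a2, a fatty acid transporter and activating enzyme, by 3.11 ± 0.62 (0.00229). Ucp1 had 1087, 718.5, 110.2 and 665.8 CPM in Cth-/- CysF, against 50.71, 139.4, 29.89 and 106.7 CPM in Cth-/- CTRL (3.00 ± 1.01, edgeR adjusted p = 0.0395). As with most of the markers, replicate 18 was the lowest CysF library. In BAT 9 of 18 rose and 1 fell (median 0.72), beside 18.0% of all genes called. There Ucp1 had 10290, 8593, 7587 and 6797 CPM in Cth-/- CysF, against 2672, 4473, 2320 and 4580 CPM in Cth-/- CTRL (1.25 ± 0.22, edgeR adjusted p = 0.0016). The 1 that fell was Adrb3, the beta3-adrenergic receptor (-1.82 ± 0.21, edgeR adjusted p = 6.97e-05). Esrrb, an oestrogen-related receptor, rose by 1.73 ± 0.36 (edgeR adjusted p = 0.00435). In EFAT 3 of 16 rose, among them Ppargc1a, a coactivator of mitochondrial genes (1.58 ± 0.36, edgeR adjusted p = 0.00603), and none fell, beside 28.8% of all genes called.

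Of 8 further brown identity genes tested in SFAT, 2 rose and 1 fell in Cth-/- mice on CysF. The background for this list, and for the beige and white lists and the relatives in SFAT, is the 25.4% of all genes called there. Mpzl2 rose by 1.73 ± 0.24 and Nrg4, a secreted growth factor, by 0.60 ± 0.14, and Epsti1 fell by 1.44 on the log2 scale (± 0.31). In BAT 2 of 9 rose and 1 fell, beside 18.0% of all genes, with Bmp8b, a secreted factor of brown fat, up by 2.23 ± 0.42. Of 9 beige genes in SFAT 1 rose, Slc27a1 (1.55), and 4 fell, among them Cd40 (-1.73) and Tmem26 (-1.22). Of 7 white adipocyte genes in SFAT 1 fell, Lep, the gene of leptin (-2.0 ± 0.58, edgeR adjusted p = 0.0197), and none rose. The summed level of the 9 beige genes was 600.9 to 769.1 CPM in Cth-/- CysF and 268.9 to 412.5 CPM in Cth-/- CTRL, so the sum was higher in Cth-/- CysF while 4 single genes fell.

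Relatives of the markers were set beside them. In SFAT of Cth-/- mice on CysF, 5 of 15 tested relatives rose and 1 fell. Cox7a2, the isoform of most tissues, had 90.99 CPM in Cth-/- CysF and 56.38 CPM in Cth-/- CTRL (0.70 ± 0.23, edgeR adjusted p = 0.0372), and Cox8a had 180 CPM in Cth-/- CysF and 139.4 CPM in Cth-/- CTRL (0.38 ± 0.13, 0.0436). Per exon length Cox7a2 stood at 96.4 CPM per kb in Cth-/- CysF SFAT beside 45.0 for Cox7a1, and Cox8a at 290.7 beside 238.7 for Cox8b. In BAT of the same mice the order was the reverse, with Cox7a2 at 317.2 CPM per kb beside 528.1 for Cox7a1, and Cox8a at 767.2 beside 1360 for Cox8b. Cidec, the lipid droplet relative of Cidea, rose by 0.92 ± 0.17 in SFAT and by 0.76 ± 0.17 in BAT. Elovl1 fell by 0.63 on the log2 scale (± 0.11) in SFAT, and Fabp5 fell by 1.66 (± 0.24) in BAT.

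The markers' levels were also compared with each other across the libraries of 1 depot. The median Pearson r over the 45 pairs of markers was 0.709 in the 16 SFAT libraries (-0.651 to 0.968), 0.332 in EFAT (-0.504 to 0.939) and 0.089 in BAT (-0.593 to 0.815), as a description over libraries that share groups. Over the 12 group means of log2 CPM, the genes most like the mean of the markers were Cpt1b (r = 0.996), Cpn2 (0.994), Acsf2 (0.994), Gpd2 (0.993) and Dnajc15 (0.992), and Ucp1 was at 0.977. Over the 16 SFAT libraries they were Cpt1b (0.979), Pank1 (0.976), Hadha (0.974), Acot11 (0.963) and Ucp1 (0.958). For single markers over the 12 group means, the nearest gene was Ucp1 for Cidea (0.989), Cpt1b for Elovl3 (0.992), Tuba8 for Cox8b (0.992), Slc25a20 for Lgr6 (0.998), Khdrbs3 for Zic1 (0.998) and Ntrk3 for Prdm16 (0.980). The 12 points come from 3 depots, which these values share.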

How the data were processed

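RNA was extracted from ground frozen tissue and made into poly(A) libraries, per the labels' protocols, and the submitters' processing notes name FastQC, Picard, STAR and RSEM and the mm10 build (the sources used here give neither versions nor strandedness). The authors deposited 1 table of RSEM expected counts for 47729 genes in 48 libraries; 5.31 to 8.16% of the values per library were not exactly whole, and they were rounded to whole numbers. RSEM divides reads between loci they fit, which makes genes with close copies less certain. Each of the 12 groups came from the sample titles.

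Within each depot, its 16 libraries in 4 groups were fitted together with edgeR 4.0.16 (R 4.3.3): TMM scaling, filterByExpr (minimum count 10, minimum total 15), quasi-likelihood F-test, two-sided, Benjamini-Hochberg adjustment over all genes tested and a threshold of 0.05. Comparisons between depots used all 48 libraries. CPM were computed here from the deposited counts with TMM factors over all 48 libraries, and log2 CPM used a prior count of 2. Exon lengths and gene positions came from GENCODE M21 (GRCm38, the genome of mm10). The test was checked on simulated data first. Read ratios carry exact 95% intervals for counting error only.

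The markers and lists were chosen with earlier results of these data known. Every marker that passed the low-count filter was tested in each comparison. The text names all of these in some comparisons and only a part of them in others. Cth and Ucp1 are also named. Of each other list at most 3 called genes are named, taking the largest fold changes among genes that averaged 1 CPM or more. Relatives are named beside their marker. Likeness was taken over protein-coding genes that averaged 5 CPM or more. Alternatives were DESeq2 1.42.0, RLE scaling, robust dispersion, all genes kept whatever their counts, only the groups compared, a term for library set, a muscle score as a covariate, the replicate block and each library left out. Fits without EFAT Cth+/+ CysF replicate 11, SFAT Cth-/- CysF replicate 20 and BAT Cth+/+ CysF replicate 8, and fits within each library set, were added after the data were seen.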

Additional observations from a re-analysis of the deposited data

Results flagged for a closer look

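In 16 of 120 groups of 4 libraries, 1 library stood apart from its group for a marker. The rule flags about 1 in 20 groups by chance where values are normal and groups independent. Those conditions are not met here, since 1 library recurs over markers and some groups hold reads in 1 library only. The 16 flags can therefore not be set against that share. Of the 16, 6 were EFAT Cth+/+ CysF replicate 11, which held Cidea at 42.8 CPM, Elovl3 at 8.88, Cox7a1 at 10.1, Otop1 at 11.9, Fabp3 at 6.68 and Lgr6 at 2.76 CPM. In EFAT Cth-/- CysF, replicate 20 was the high library for Lgr6 (1.06 CPM) and Prdm16 (11.04 CPM), and replicate 17 held the 1 read of Elovl3 (0.0341 CPM). In EFAT Cth-/- CTRL, replicate 15 held the 3 reads of Zic1 (0.0698 CPM). In SFAT, Prdm16 was highest in Cth-/- CysF replicate 18 (18.25 CPM) and Otop1 in Cth+/+ CysF replicate 11 (28.05 CPM). In BAT, Elovl3 was lowest in Cth+/+ CysF replicate 10 (197.6 CPM) and Fabp3 in Cth+/+ CysF replicate 7 (173.7 CPM), while Lgr6 was highest in Cth+/+ CTRL replicate 4 (102.2 CPM) and Prdm16 in Cth+/+ CTRL replicate 3 (42.8 CPM).

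The diet response in SFAT differed between genotypes, by the interaction test with edgeR, for Cidea (2.68 on the log2 scale, Cth-/- minus Cth+/+), Elovl3 (3.08), Cox7a1 (3.14), Cox8b (2.00), Kcnk3 (1.41), Fabp3 (3.96) and Lgr6 (4.12). The diet response of Cth-/- mice differed between EFAT and BAT for Cox8b (1.98) and between SFAT and EFAT for Cox7a1 (3.36).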

How the results depend on the processing

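Over the alternatives, 4104 of 4352 recomputed values counted as unchanged. For a fold change, that meant the same direction and the same side of the threshold. A change of sign by less than 1 standard error also counted where the marker was not called in either fit. For a number of markers called, it meant a number close to the main one. What changed the remaining values was not tested. In numbers of markers called, DESeq2 gave 5 for the diet in BAT of Cth-/- mice (2 with edgeR). In BAT it gave 1 for genotype on CTRL and 1 for the interaction (0 each). It gave 2 for the diet in SFAT of Cth+/+ mice (0). In EFAT it gave 2 for the diet in Cth-/- mice (1) and 3 for the interaction (0). For EFAT minus BAT and for SFAT minus EFAT it gave 3 each (1 each). Of all genes, DESeq2 called 5711 of 17239 for the diet in EFAT of Cth-/- mice. It called 3556 of 17633 for EFAT minus BAT and 1286 of 15856 for SFAT minus EFAT. The muscle covariate gave 1 for the diet in BAT of Cth-/- mice, 2 for genotype on CysF in BAT (4), 4 for the SFAT interaction (7) and 2 for the diet in EFAT of Cth-/- mice, and it turned Cidea in EFAT on CysF to 0.29 (adjusted p = 0.604). The library set as a term gave 1 for genotype on CTRL in BAT and 0 for the diet in EFAT of Cth-/- mice. Within set A the counts were 1 for the BAT interaction, 2 for the diet in SFAT of Cth-/- mice (6), 2 for the SFAT interaction, 0 for the diet in EFAT of Cth-/- mice and 0 for genotype on CysF in EFAT (4). Within set B they were 0 for the diet in BAT of Cth-/- mice, 0 for genotype on CysF in BAT and 0 for the diet in EFAT of Cth-/- mice. Fits on only the groups compared gave 2 for the diet in EFAT of Cth-/- mice and 2 for genotype on CysF in EFAT, and leaving out EFAT replicate 11 gave 1 for the EFAT interaction. With 1 library left out at a time, the count ran from 4 to 9 for the diet in SFAT of Cth-/- mice, 5 to 9 for the SFAT interaction, 0 to 1 for genotype on CTRL and for the interaction in BAT, 0 to 1 for the diet in EFAT of Cth-/- mice, 3 to 4 for genotype on CysF in EFAT, 0 to 3 for the EFAT interaction, 0 to 1 for SFAT minus BAT, 1 to 3 for EFAT minus BAT and 0 to 2 for SFAT minus EFAT.

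The replicate numbers repeat over depots, so the comparisons between depots were refitted with the number as a block, which gave 2 markers for EFAT minus BAT and 2 for SFAT minus EFAT, the added one being Prdm16 in both (0.72, edgeR adjusted p = 0.017, and -0.71, 0.0311). Same-numbered libraries correlated in their deviations from the group means at a median r of 0.179 for BAT and SFAT (10 of 16 pairs above 0.1), 0.0294 for BAT and EFAT (6 of 16) and 0.123 for SFAT and EFAT (10 of 16). A library correlated best with its own number in 10 of 16 cases for BAT and SFAT, 7 for BAT and EFAT and 9 for SFAT and EFAT, a hint from the data and not from the design. The labels do not say that a number is 1 animal, and not every pair was above 0.1, so the fits without the block are the ones reported. Depth limits Zic1 in SFAT and EFAT and Elovl3 and Otop1 in EFAT, where groups hold few reads.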
